A study of Mus musculus with 6 samples.

Results

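The S phase and mitosis proliferation genes are 36 genes that dividing cells use to copy their DNA and to separate their chromosomes, measured here in pancreatic islets of control mice and of mice mutant for the transcription factor Nkx6-1. They were taken by name from the gene names of the array, which holds 31829. Of the members, 15 act at the start of or during S phase and 21 in G2 and mitosis. They were read by 49 of 39429 probes, and 10 of the genes had more than 1 probe.

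Islets were isolated from male mice 6 weeks old, and 6 single-colour Agilent arrays were hybridised, each with RNA pooled from 2 pancreata of 1 genotype. The 3 control samples were Nkx6.1fl/+;Pdx1-CreERTM and the 3 mutant samples Nkx6.1fl/-;Pdx1-CreERTM littermates, on a background mixed from FVB/N, C57Bl/6J and Cd1. Every mouse, controls included, carried a floxed Nkx6.1 allele and Pdx1-CreERTM, and every mouse was given tamoxifen 4 times from the age of 4 weeks, at 2 mg per 25 g body weight. Pdx1-CreERTM is a tamoxifen-activated Cre under the control of Pdx1, a factor of pancreatic progenitors and beta cells. Controls kept a wild-type allele that Cre does not recombine, while mutants carried a null allele in its place. Islets are a mixture of cell types, and in such bulk samples fewer dividing cells and less RNA per dividing cell cannot be told apart.

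A cell commits to division when D cyclins and then cyclin E, with their kinases, release E2F factors, which switch on the genes of DNA replication. The MCM helicase is loaded on DNA by Cdc6 and Cdt1, and PCNA clamps the polymerases while thymidylate synthase and ribonucleotide reductase supply nucleotides. In G2 the mitotic cyclins activate Cdk1, FOXM1 and B-MYB drive a second wave of genes, and kinases such as Plk1 and the Auroras, with the kinetochore and spindle proteins, carry out mitosis. Beta cells divide rarely in the adult and more often in young mice, and transcripts of this second wave come mainly from the few cells in cycle. Replication genes such as Pcna and Mcm7 are also transcribed at some level outside division.

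Promoter motifs differed between the classes, and sequences are shown because the members of G2 and mitosis moved together across the arrays as described further on. Windows of 300 bases, 250 before and 50 after the start of transcription, were given for 29 of the 36 members in RefSeq (GRCm38.p6). They were searched on both strands for the cell cycle genes homology region or CHR (TTTGAA or TTCGAA), which the MuvB complexes with B-MYB and FOXM1 recognise, for the CCAAT box (CCAAT) bound by NF-Y, and for E2F sites (TTTCCCGC, TTTGGCGC, TTTCGCGC or TTTGCCGC). Overlapping matches of a motif were each counted, and 1 pair of matches of different motifs overlapped. A CHR match stood in 13 of 16 windows of G2 and mitosis members (81.2%), in 2 of 13 of S phase members (15.4%) and in 19.4% of 27025 genes. A CCAAT box stood in 93.8%, 61.5% and 37.9% of them, and CHR and CCAAT together in 81.2%, 15.4% and 7.7%. E2F sites stood in 6.25% of the G2 and mitosis windows, 46.2% of the S phase windows and 2.32% of all. These are matches of letters, not measured binding, and the letters were chosen with the members known.

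**Figure D1:**
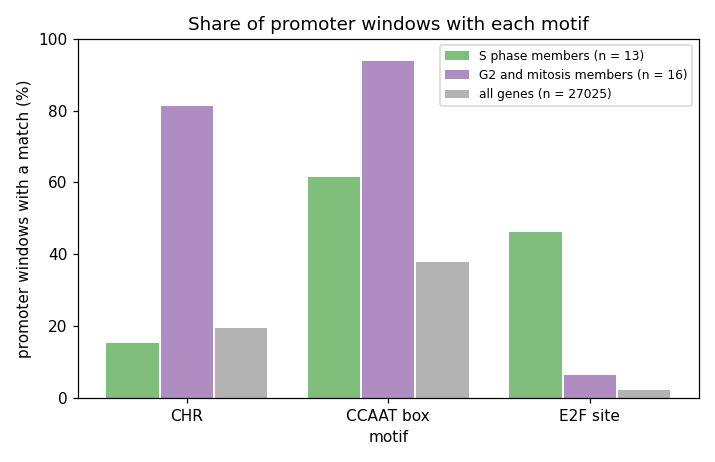
Share of promoter windows with at least 1 match of each motif (percent, bars from 0) for 13 S phase members, 16 G2 and mitosis members and 27025 genes. CHR matches stand in 81.2% of the G2 and mitosis windows against 15.4% of the S phase windows, and E2F matches in 6.25% against 46.2%.

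Below are the 200 bases just before the start of transcription of some G2 and mitosis members, 5′ to 3′ on the strand of the gene, with every CHR, CCAAT or E2F match in capitals.
Mki67 (chr7:135716380-135716579, minus strand): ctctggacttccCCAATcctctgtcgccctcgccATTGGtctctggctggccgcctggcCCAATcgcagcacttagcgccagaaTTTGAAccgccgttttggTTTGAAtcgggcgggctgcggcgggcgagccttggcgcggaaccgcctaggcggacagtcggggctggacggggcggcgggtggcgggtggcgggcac
Top2a (chr11:99024190-99024389, minus strand): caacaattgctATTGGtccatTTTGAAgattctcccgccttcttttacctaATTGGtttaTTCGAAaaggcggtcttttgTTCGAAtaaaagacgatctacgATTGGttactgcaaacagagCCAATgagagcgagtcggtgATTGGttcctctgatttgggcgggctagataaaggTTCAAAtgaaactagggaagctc
Ccnb1 (chr13:100786487-100786686, minus strand): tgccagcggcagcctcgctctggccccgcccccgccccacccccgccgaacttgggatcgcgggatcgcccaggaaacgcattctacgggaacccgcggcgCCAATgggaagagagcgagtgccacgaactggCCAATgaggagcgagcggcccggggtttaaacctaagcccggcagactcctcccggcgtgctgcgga
Ccnb2 (chr9:70421555-70421754, minus strand): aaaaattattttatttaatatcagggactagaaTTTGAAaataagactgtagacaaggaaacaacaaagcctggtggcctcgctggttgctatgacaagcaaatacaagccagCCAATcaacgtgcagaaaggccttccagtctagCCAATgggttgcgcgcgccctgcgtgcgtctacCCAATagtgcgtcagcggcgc
Cdk1 (chr10:69352913-69353112, minus strand): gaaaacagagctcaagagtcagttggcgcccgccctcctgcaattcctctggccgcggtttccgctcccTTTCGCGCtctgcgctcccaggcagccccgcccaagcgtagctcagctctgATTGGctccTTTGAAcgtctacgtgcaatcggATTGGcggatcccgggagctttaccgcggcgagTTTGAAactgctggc
Cdc20 (chr4:118437344-118437543, minus strand): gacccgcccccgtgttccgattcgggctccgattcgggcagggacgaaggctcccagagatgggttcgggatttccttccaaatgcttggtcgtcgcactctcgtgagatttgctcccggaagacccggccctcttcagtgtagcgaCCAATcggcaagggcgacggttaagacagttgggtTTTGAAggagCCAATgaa
Bub1b (chr2:118598011-118598210, plus strand): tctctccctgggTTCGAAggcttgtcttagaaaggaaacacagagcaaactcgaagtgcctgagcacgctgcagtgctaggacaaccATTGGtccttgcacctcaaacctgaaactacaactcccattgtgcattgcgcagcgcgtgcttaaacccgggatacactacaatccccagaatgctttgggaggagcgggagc
In this stretch Mki67 holds 2 CHR and 3 CCAAT matches, and Top2a holds 4 and 5. Ccnb1 has 2 CCAAT boxes and no CHR match, which says only that these letters are not in the window. Cdk1 alone in this set also holds an E2F match. The S phase members below have E2F matches and no CHR match, and 2 of them have CCAAT boxes.
Mcm5 (chr8:75109309-75109508, plus strand): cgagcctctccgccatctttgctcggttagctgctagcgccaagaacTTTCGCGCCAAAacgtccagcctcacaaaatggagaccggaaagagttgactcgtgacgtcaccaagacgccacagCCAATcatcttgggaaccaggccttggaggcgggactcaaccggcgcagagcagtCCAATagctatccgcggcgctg
Mcm6 (chr1:128359706-128359905, minus strand): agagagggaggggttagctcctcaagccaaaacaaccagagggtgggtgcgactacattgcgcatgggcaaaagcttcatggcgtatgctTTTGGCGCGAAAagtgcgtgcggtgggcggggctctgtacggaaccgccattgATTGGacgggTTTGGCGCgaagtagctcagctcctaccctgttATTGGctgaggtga
Cdc6 (chr11:98907951-98908150, plus strand): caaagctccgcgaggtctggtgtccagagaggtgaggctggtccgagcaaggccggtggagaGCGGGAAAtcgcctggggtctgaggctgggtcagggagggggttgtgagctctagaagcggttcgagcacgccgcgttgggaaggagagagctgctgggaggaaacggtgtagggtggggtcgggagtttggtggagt
The 3 E2F matches of Mcm6 include a pair that overlaps on opposite strands, as do the 2 of Mcm5.

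A few facts of the arrays bear on every value. Levels are log2 signals after subtraction of each array's 75th percentile, so a level of 0 is that percentile, and differences are mutant minus control on the same log2 scale. A gene was tested if the scanner software called a probe of it well above background on all 3 control or all 3 mutant arrays, which 22775 gene names met. Its brightest such probe stands for it. Between 63.9% and 76.3% of probes were well above background per array, least on mutants 1 and 2, and 35 to 47 of the 49 member probes were. Control 1, mutant 2 and mutant 3 shared slide 1, and control 2, control 3 and mutant 1 shared slide 2. Nkx6-1 itself stood at 4.79, 4.85 and 4.64 in controls 1 to 3 and at 4.32, 4.06 and 4.45 in mutants 1 to 3. All mutants lay below all controls, with a difference of -0.48 (SE 0.14, limma, adjusted p = 0.131) that did not pass the threshold of 0.05. Whether that probe lies in the deleted stretch is not given in the sources used here, so it is a limited check of the labels. The islet hormone genes Ins1 and Gcg, for insulin and glucagon, were well above background on all arrays, at control means of 7.83 and 7.98.

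Of the 36 proliferation genes, 33 were tested and 0 were called changed at an adjusted p under 0.05 (limma, Benjamini-Hochberg over all 22775 genes), against 2.53% of all genes. At an unadjusted p under 0.05, 2 members were lower in mutants, namely E2f1 and Kif11, and 1 was higher, Mcm4. Those shares compare with 11.1% of all genes lower and 9.09% higher. The members split by class in their values. All 19 tested members of G2 and mitosis had a difference below 0, against 53.4% of all genes, with a median of -0.40 and a range of -0.86 to -0.04. Bub1 and Kif11 entered the test through the controls alone, and the 17 members detected on all 6 arrays also lay below 0, with a median of -0.40. Among the 14 tested S phase members, 6 differences lay below 0 and 8 above, and the median was 0.03. Cdc6, among those below 0, entered the test through the controls alone. Of the 13 detected on all 6 arrays 5 lay below 0, with a median of 0.04. The median over all genes tested was -0.03.

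Control 2 stood apart from the other controls in these genes. It was the lowest control in 19 of 19 G2 and mitosis members and in 11 of 14 S phase members, while it was the lowest control for 27% of all genes. It lay a median of 1.0 below the mean of controls 1 and 3 in the G2 and mitosis members, with a range of -1.57 to -0.48, and a median of 0.34 below them in the S phase members, where the median over all genes was 0. Its level was below the mutant mean in 16 of the 19 G2 and mitosis members. Control 3 was also unusual, as the highest of the 6 arrays in 17 of the 19, against 4554 of all 22775 genes. The median SD among controls was 0.65 for the G2 and mitosis members and 0.24 for S phase members, against 0.17 for all genes. Among mutants it was 0.20, 0.13 and 0.19.

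Without control 2 the 3 mutants lay below the remaining controls in all 19 tested G2 and mitosis members, against 1 of 19 with all arrays. The same held for 16.5% of all genes without control 2 and for 14% with all arrays. Control 2 was the lowest control in all 19 of these members but in 27% of all genes. The share over all genes is therefore not a like background for the 19. Bub1 and Kif11, counted among the 19, entered the test through the controls alone. The median difference became -0.84 for the G2 and mitosis members and -0.11 for the S phase members. At an unadjusted p under 0.05, 16 of the 19 were then lower (7.25% of all genes), and 0 of the 33 members were called by limma, against 0.0571% of all genes. No label sets control 2 apart, and it was left out after its values were seen. Leaving out control 3 instead gave a median of -0.19 for the G2 and mitosis members, with 16 of 19 below 0. The median over all genes was then -0.02. At an unadjusted p under 0.05 (limma), 0 of the 33 members were lower. In that fit 2948 of 22775 genes passed in either direction. Leaving out control 1 gave a median of -0.37 with 18 of 19 below 0. Within slide 1, where control 1 faced 2 mutants, the median difference of the G2 and mitosis members was -0.70. Within slide 2, where controls 2 and 3 faced 1 mutant, it was -0.19. The S phase medians were -0.09 and 0.08. Fitted with a slide block, the medians were -0.48 and 0.00.

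**Figure D2:**
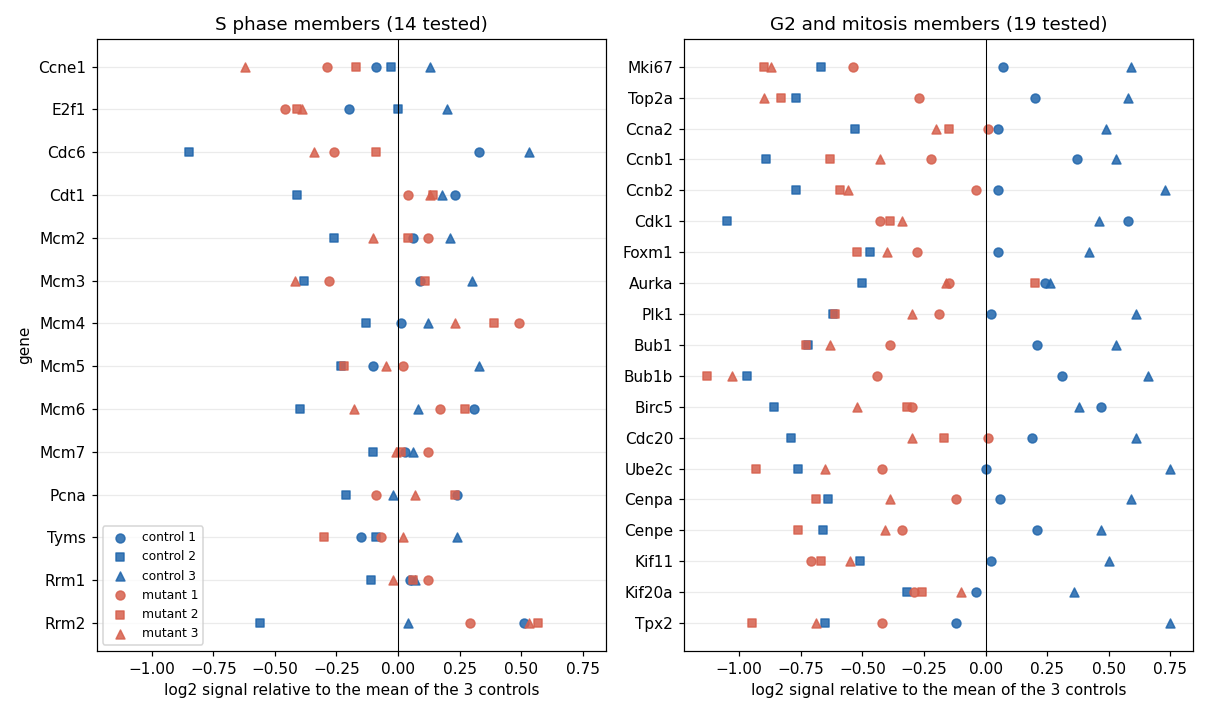
Log2 signal of each tested member on each of the 6 arrays relative to the mean of the 3 controls (x axis), with S phase members on the left and G2 and mitosis members on the right, controls in blue and mutants in red. In every G2 and mitosis member control 2 (blue square) lies below controls 1 and 3, and the mutants lie between it and them or below it.

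Mki67, which encodes the proliferation marker Ki-67, stood at -0.13, -0.87 and 0.39 in controls 1 to 3 and at -0.74, -1.10 and -1.07 in mutants 1 to 3. The groups overlap through control 2, which lay below mutant 1. The difference was -0.77 (SE 0.32, limma, adjusted p = 0.258), a 1.70-fold lower level in mutants, with -1.10 (SE 0.22, adjusted p = 0.158) without control 2 and -0.47 (SE 0.27, adjusted p = 0.555) without control 3. Its second probe read -0.63, and -0.96 without control 2. Top2a, the topoisomerase that untangles sister chromatids, was at -3.0, -3.97 and -2.62 in controls and at -3.47, -4.03 and -4.10 in mutants. Control 2 again sat among the mutants, and the difference was -0.67 (SE 0.37, adjusted p = 0.373), or -0.42 (SE 0.26) with normexp correction.

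Control 2 was the lowest of the 6 arrays for the cyclins Ccna2, Ccnb1 and Ccnb2 and for Cdk1, each by its brightest probe. Ccnb1, cyclin B1, was at -2.62, -3.88 and -2.46 in controls and at -3.21, -3.62 and -3.42 in mutants. The difference of -0.43 (SE 0.39, adjusted p = 0.569) became -0.88 (SE 0.17) without control 2. It was smaller without control 3, the highest array for this probe. On 2 dimmer Ccnb1 probes, which were well above background on 1 mutant array each, control 2 was not the lowest of the 6. They read -5.42, -6.01 and -4.99 in controls with -6.25, -6.36 and -5.75 in mutants, and -5.32, -6.57 and -4.97 with -5.99, -7.03 and -6.39, differences of -0.65 and -0.85. Cdk1 was at -2.44, -4.07 and -2.56 in controls against -3.45, -3.41 and -3.36 in mutants. The 3 mutants lay close together, between control 2 and the other controls, and the difference was -0.39 (SE 0.44, adjusted p = 0.650), or -0.91 (SE 0.13, adjusted p = 0.101) without control 2 and -0.15 (SE 0.48) without control 3. A dimmer probe of Cdk1, well above background on 1 mutant array, read -0.55 with no dip in control 2. It was at -5.30, -5.23 and -5.31 in controls and -6.33, -6.13 and -5.04 in mutants. The dimmest Cdk1 probe was well above background on 2 control arrays and 1 mutant array and was not tested. On it control 2 was the lowest of the 6, at -5.23, -7.25 and -5.62 in controls and -6.87, -6.66 and -6.86 in mutants. Ccna2, cyclin A2, which acts in S phase and G2, was at -2.11, -2.69 and -1.67 in controls and -2.15, -2.31 and -2.36 in mutants, a difference of -0.11 (SE 0.26, adjusted p = 0.830). Ccnb2, cyclin B2, differed by -0.40 (SE 0.39).

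Foxm1, the factor that drives the mitotic genes, was at -3.46, -3.98 and -3.09 in controls and at -3.79, -4.03 and -3.91 in mutants. The difference was -0.40 (SE 0.23, adjusted p = 0.394), with -0.63 (SE 0.17) without control 2, -0.16 (SE 0.16) with normexp correction and -0.20 (SE 0.16) in the deposited equalized values. Without control 3, the highest array for Foxm1, the difference was also smaller. Its second probe was well above background on 2 arrays and was not tested.

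Among the mitotic kinases and the spindle checkpoint, Bub1b, which encodes the checkpoint protein BubR1, had the largest difference of all members. It was at -4.19, -5.47 and -3.84 in controls and at -4.94, -5.63 and -5.53 in mutants. Mutants 2 and 3 lay below every control and mutant 1 above control 2. The difference of -0.86 (SE 0.45, adjusted p = 0.344) was 1.82-fold. Its partner kinase Bub1 was at -4.94, -5.87 and -4.62 in controls and -5.54, -5.88 and -5.78 in mutants, a difference of -0.59 (SE 0.33, adjusted p = 0.375). Only 1 of 3 mutant arrays was well above background for it, and the difference was -0.04 (SE 0.14) with normexp background correction and -0.14 (SE 0.16) in the deposited equalized values. Bub1b read -0.37 (SE 0.26) and -0.53 (SE 0.26) under the same changes. Plk1, a kinase of mitotic entry, differed by -0.37 (SE 0.32), and Aurka, the spindle pole kinase, by -0.04 (SE 0.24). Birc5, or survivin, a partner of Aurora B, differed by -0.38 (SE 0.36), and its 3 probes read -0.60 to -0.38. Aurkb was at background level on all 6 arrays (not well above background) and was not tested.

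Kif11, the motor that pushes spindle poles apart, was the G2 and mitosis member whose groups did not overlap. It was at -5.17, -5.70 and -4.69 in controls and at -5.90, -5.86 and -5.74 in mutants, with mutant 3 just below control 2. The difference was -0.64 (SE 0.26, adjusted p = 0.238), and 2 of 3 mutant arrays were well above background. It shrank to -0.17 (SE 0.17) with normexp background correction and to -0.30 (SE 0.17) in the deposited equalized values. Tpx2, an activator of Aurora A on the spindle, was at -3.52, -4.05 and -2.65 in controls and -3.82, -4.35 and -4.09 in mutants. Its difference was -0.68 (SE 0.36, adjusted p = 0.358), or -0.45 (SE 0.26) with normexp correction, and its second probe read -0.20. Cenpe, a kinetochore motor, was at -1.88, -2.75 and -1.62 in controls and -2.43, -2.85 and -2.50 in mutants, a difference of -0.51 (SE 0.31, adjusted p = 0.412). Cenpa, the histone variant of centromeres, differed by -0.40 (SE 0.33) and Kif20a, a motor of cytokinesis, by -0.22 (SE 0.19). Cenpf, a kinetochore protein, was likewise not well above background on all 6 and was not tested.

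Of the genes that end mitosis through the anaphase-promoting complex, Ube2c, its ubiquitin-conjugating enzyme, was at -2.10, -2.86 and -1.35 in controls and -2.52, -3.03 and -2.75 in mutants. Its difference was -0.66 (SE 0.38, adjusted p = 0.391), and its second probe read -0.62. Cdc20, the activator of the complex, differed by -0.16 (SE 0.36), and by -0.55 (SE 0.19) without control 2. Its sign turned when another single array was left out.

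**Figure D3:**
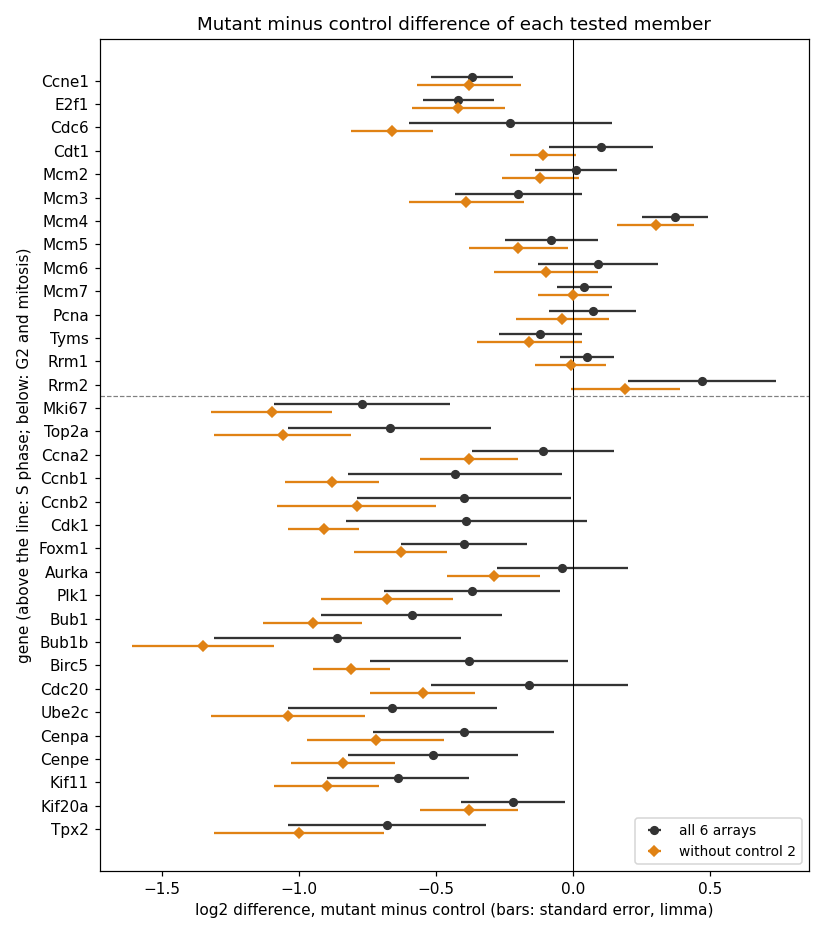
Difference of each tested member, mutant minus control on the log2 scale, with its standard error from limma, for all 6 arrays (dark circles) and without control 2 (orange diamonds). All 19 G2 and mitosis members lie below 0 in both fits, and without control 2 they range from -1.35 to -0.29, while S phase members range from -0.66 to 0.30.

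At the entry to S phase, the regulators E2f1 and Ccne1 were lower on every mutant array than on every control array, and control 2 was not their lowest control. They are 2 of the 14 tested S phase members, a share close to the 14% of all genes with every mutant below every control, and neither passed the test. E2f1, an activator of replication genes, was at -1.41, -1.21 and -1.01 in controls and at -1.67, -1.62 and -1.60 in mutants. Its difference was -0.42 (SE 0.13, adjusted p = 0.152), the same in size without control 2. Ccne1, cyclin E1, was at -0.47, -0.41 and -0.25 in controls and -0.67, -0.55 and -1.0 in mutants, a difference of -0.37 (SE 0.15, adjusted p = 0.248). Its second, dimmer probe (chr7:38885574-38885633, mm9) read -5.00, -5.00 and -4.68 in controls and -5.69, -5.74 and -5.92 in mutants. The groups do not overlap, with 2 of 3 mutant arrays well above background. In a fit where each gene was represented by its dimmest tested probe, this difference of -0.89 (SE 0.14, limma, adjusted p = 0.0414) came under the threshold. This probe entered the test through the controls, where it is higher, and the value is given as a description. Ccne2, cyclin E2, was well above background on 2 control arrays and 0 mutant arrays and was not tested.

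The genes that load and form the replicative helicase differed little and in both directions. Cdc6, a loader, differed by -0.23 (SE 0.37) and by -0.66 (SE 0.15, adjusted p = 0.193) without control 2, with 1 of 3 mutant arrays well above background. Cdt1, its partner, differed by 0.10 (SE 0.19). Mcm2 was at -1.13, -1.45 and -0.98 in controls and at -1.07, -1.15 and -1.29 in mutants, a difference of 0.01 (SE 0.15, adjusted p = 0.967). Mcm4 was higher on every mutant array, at 0.36, 0.22 and 0.47 in controls against 0.84, 0.74 and 0.58 in mutants. Its difference of 0.37 (SE 0.12, adjusted p = 0.175) did not pass. Mutants above all controls were found for 12.3% of all genes and for 1 of the 14 S phase members. Mcm3 and Mcm5 differed by -0.20 (SE 0.23) and -0.08 (SE 0.17), and Mcm6 and Mcm7 by 0.09 (SE 0.22) and 0.04 (SE 0.10). The second probe of Mcm3 read 0.12.

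Pcna, the polymerase clamp, was at 2.41, 1.96 and 2.15 in controls and at 2.08, 2.40 and 2.24 in mutants, with the groups interleaved and a difference of 0.07 (SE 0.16, adjusted p = 0.841). Of the nucleotide enzymes, Rrm2, the cell cycle-regulated subunit of ribonucleotide reductase, was at -0.20, -1.27 and -0.67 in controls and at -0.42, -0.14 and -0.18 in mutants. Its difference was 0.47 (SE 0.27, adjusted p = 0.399), and 0.19 (SE 0.20) without control 2. Rrm1, the large subunit, differed by 0.05 (SE 0.10) and Tyms, thymidylate synthase, by -0.12 (SE 0.15).

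The promoter classes and the measured values can be set side by side for the tested members that have a window, with no test. The 14 with a CHR match had a median difference of -0.40, and the 14 without one -0.16. Within G2 and mitosis the 12 with and the 3 without a match had medians of -0.49 and -0.43. The 2 S phase members with a CHR match, Mcm2 and Mcm7, differed by 0.01 and 0.04.

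Other genes of the cell cycle were drawn from lists of replication, mitosis, regulators and brakes, and D cyclins with CDK inhibitors, 134 in all, of which 126 were tested. Of these 1 was called lower and 0 higher (limma), against 1.12% and 1.41% of all genes. The called gene was Ccnd2, cyclin D2, which works upstream of E2F and is prominent in beta cells. It was at 5.29, 5.08 and 5.22 in controls and at 4.22, 4.04 and 4.25 in mutants, a fall of 2.04-fold (difference -1.03, SE 0.11, adjusted p = 0.0200). No mutant array reached any control. The adjusted p passed the threshold without control 1 (0.041) or mutant 1 (0.0456) and missed it without control 2 (0.089), control 3 (0.104), mutant 2 (0.0949) or mutant 3 (0.0547), with differences of -1.08 to -0.96. In the same list Cdkn1a, the inhibitor p21, differed by -1.04 (SE 0.29, adjusted p = 0.127, or 0.0397 with a slide block) and Cdkn2c, the inhibitor p18, by -0.55 (SE 0.14, adjusted p = 0.106).

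Of 42 tested mitosis genes, 33 had a difference below 0, against 53.4% of all genes, and the median was -0.28. Control 2 was the lowest control in 36 of the 42, against 27% of all genes. Cdc25c, Kif4, Dlgap5, Ckap2l, Cenpi, Espl1 and Kif18a entered the test through the controls alone, and each lay below 0. Without control 2 the median was -0.57 and 38 of the 42 lay below 0, against 53.4% of all genes. Spc25, a kinetochore protein, differed by -1.10 (SE 0.37, adjusted p = 0.178) and Pbk, a mitotic kinase, by -1.07 (SE 0.40, adjusted p = 0.217). The control mean of Spc25, 5.95, was the highest of these genes, with Bub3 next at 1.78, and the source of its signal was not tested. Pbk shared the dip, at -1.67, -2.56 and -1.02 in controls and -2.49, -2.81 and -3.14 in mutants, while Spc25 did not, at 6.75, 5.79 and 5.31 in controls and 4.86, 5.07 and 4.62 in mutants. Of 42 tested replication genes, 18 lay below 0 and 24 above, with a median of 0.04. Cdc7 and Hells entered the test through the controls alone, and both lay below 0. Dbf4, the activator of the origin-firing kinase Cdc7, differed by -0.84 (SE 0.18, adjusted p = 0.0809), and Chaf1b, a histone chaperone of replication, by 0.70 (SE 0.20, adjusted p = 0.131). Among 31 regulators and brakes the median was -0.12, with the activator E2f2 at 0.62 (SE 0.16, adjusted p = 0.106) and the repressor E2f7 at -0.59 (SE 0.13, adjusted p = 0.0776, or 0.0373 with a slide block).

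**Figure D4:**
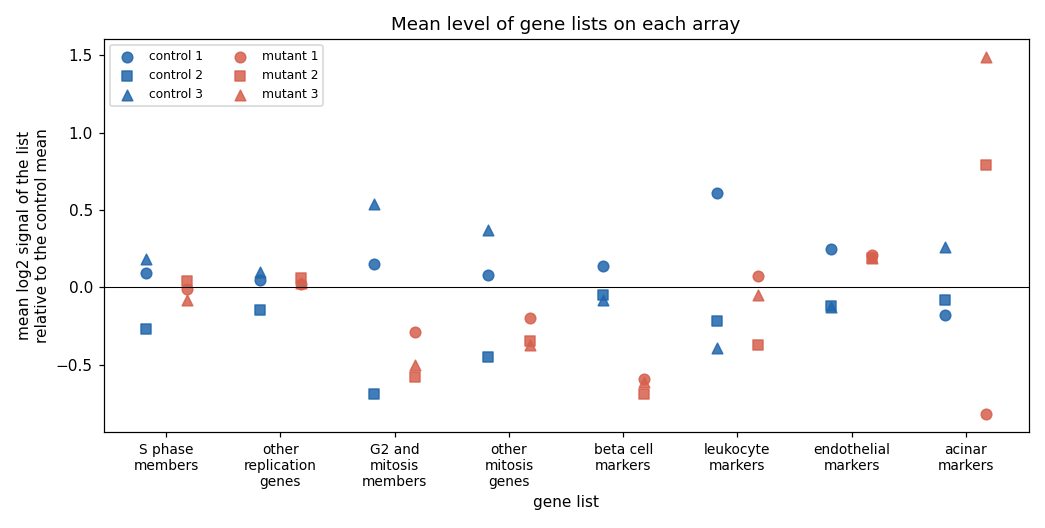
Mean log2 signal of 8 gene lists on each array, relative to the mean of the 3 controls. For the G2 and mitosis members control 2 lies at -0.69 and control 3 at 0.54 with the mutants between -0.58 and -0.29. The mean of the beta cell markers separates the groups, though only 5 of these 8 markers have a difference below 0. Acinar markers spread mutants from -0.82 to 1.49.

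Markers of other cell types, which could hold dividing cells of their own, were set beside these levels on each array. Averaged over the 19 G2 and mitosis members and set against the mean of the controls, the level was 0.15, -0.69 and 0.54 in controls 1 to 3 and -0.29, -0.58 and -0.50 in mutants 1 to 3. The 9 leukocyte markers, all tested, stood at 0.61, -0.22 and -0.39 in controls and 0.07, -0.37 and -0.05 in mutants. Control 2 lay between the other controls in this mean. By the median it was the lowest control, at 0.39, -0.22 and -0.07 in controls 1 to 3. It was the lowest control in 5 of the 9 markers, against 27% of all genes. The 7 endothelial markers were at 0.25, -0.12 and -0.13 in controls and 0.19 to 0.21 in mutants, and the 6 mesenchyme markers at 0.87, -0.20 and -0.67 in controls and 0.30 to 0.58 in mutants. The 10 acinar markers spanned -0.18 to 0.26 in controls and -0.82 to 1.49 in mutants. The 5 duct markers spanned -0.30 to 0.41 and -0.09 to 0.91 in the mean, but 4 of them had differences below 0. The median of the 5 was -0.17, with Cftr alone above 0 at 3.12 (SE 0.70, limma, adjusted p = 0.0831). Cftr was well above background on 2 of 3 control arrays and entered the test through the mutants alone, where it is higher. The 8 beta cell markers were at 0.14, -0.05 and -0.08 in controls and -0.59, -0.69 and -0.61 in mutants, and 5 of the 8 had a difference below 0. Of these, Slc2a2 (-2.01), Slc30a8 (-0.96) and Ucn3 (-1.24) were called lower, with adjusted p of 0.0415, 0.0282 and 0.0236 (limma), and none of the 3 was called without control 2 (0.158, 0.121 and 0.112). The hormone genes Ins1, Ins2 and Iapp had differences of 0.26, 0.25 and 0.26, none of them called. These probes are bright, with control means of 7.83, 7.78 and 7.47. Whether signal saturation limited their differences, or those of the bright acinar markers, was not tested. The part of these cell types in the levels of the proliferation genes was not tested.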

How the data were processed

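Labelled RNA (150 ng, Cy3) of 6 samples was measured on single-colour arrays. The deposited scanner files hold spot intensities from Agilent Feature Extraction 10.7.3.1 (per the submitters' processing notes), background-corrected and detrended within each array, and flags (other values), per the file headers. The authors also deposited intensities equalized across the arrays (method not given in the sources used here), which served as an alternative (column medians 267 to 274.6, rank correlations with the mean spot signal of 0.999 or more).

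Here log2 of the background-corrected signal was taken, the 75th percentile of non-control spots was subtracted per array and spots of a probe were averaged. A probe was kept if it was well above background on all 3 arrays of either genotype (28361 probes). limma 3.58.1 in R 4.3.3 (linear model, empirical Bayes, 2-sided) compared the groups, with Benjamini-Hochberg adjustment over 22775 genes and a threshold of 0.05. The procedure was tested on simulated data. Probe coordinates are mm9 and promoters GRCm38.p6. Cdc45, Orc1, Orc2 and Orc6 were found under older symbols. Arrays have no read depth, and their number limits the precision.

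The members, lists and settings were chosen with earlier results of these data known. Every member is accounted for. Per-array values are given for the 10 tested members with the largest differences, for set markers (Mki67, Top2a, Ccna2, Ccnb1, Cdk1, Mcm2, Pcna, Foxm1, E2f1, Nkx6-1 and Ccnd2), and for Ccne1, Mcm4 and second probes, chosen after their values were seen. Of each pathway list, called genes and the 2 largest uncalled differences are named. Alternatives were other background corrections, scalings, filters, probe rules, blocks and left-out arrays.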

Additional observations from a re-analysis of the deposited data

How the results depend on the processing

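No member was called by limma under any setting but 1: with each gene's dimmest tested probe, 1 member (Ccne1) was called, on a probe detected on all controls and 2 of 3 mutants. The 19 G2 and mitosis differences were all below 0 under every change of background correction, scaling, block or probe rule, though Bub1 shrank to -0.04 and Kif11 to -0.17 with normexp correction; with no filter 20 of 21 were, with the filter on all 6 arrays 17 of 17, and with single arrays left out 16 to 19 of 19. Of the alternatives for single genes, 665 kept direction and call, 25 turned the sign, 1 gained and 6 lost a call (all 6 Ccnd2). Genes called over the whole array numbered 576, 1514 at an adjusted p under 0.1, 0 with mutants 1 and 2, the arrays with fewest detected probes, both left out (3864 at an unadjusted p under 0.05; 1 mutant array then remains, with its spread assumed to be that of the controls), and 13 (without control 2) to 418 (without control 1) with 1 array left out. The pathway lists had 1 call, 2 with quantile normalization, the deposited equalized values, the filter on all 6 arrays or a variance trend, 4 with a slide block or at an adjusted p under 0.1, 0 with mutants 1 and 2 left out, and 0 to 1 with 1 array left out. The labels do not say whether equal replicate numbers mark paired samples. Correlations of deviations between equal numbers (-0.23, -0.19 and -0.03) cannot decide it, and the main fit used no pairs. With a replicate block 0 genes, 0 members and 0 pathway genes were called, with 3163 genes at an unadjusted p under 0.05. Leaving out control 2 was an alternative chosen after seeing the data. All mutants then lay below the controls in 19 of 19 G2 and mitosis and 4 of 14 S phase members, against 16.5% of all genes. Among these members, Bub1, Kif11 and Cdc6 had entered the test through the controls alone. Control 2 was the lowest control in 19 of 19 and 11 of 14 of the tested members but in 27% of all genes. The share over all genes is therefore not a like background. Signs turned for Cdc6 with normexp correction (0.06), Pcna with a slide block (-0.04) and Mcm3 with its dimmer probe (0.12), and with mutants 1 and 2 left out for Mcm2 (-0.10), Mcm6 (-0.17), Mcm7 (0.00), Tyms (0.02) and Rrm1 (-0.02). With 1 array left out, differences spanned 0 for Cdc6 (-0.66 to 0.03), Cdt1 (-0.11 to 0.22), Mcm2 (-0.12 to 0.12), Mcm5 (-0.20 to 0.08), Mcm6 (-0.10 to 0.25), Mcm7 (0.00 to 0.08), Pcna (-0.04 to 0.19), Tyms (-0.19 to 0.00), Rrm1 (-0.01 to 0.08), Ccna2 (-0.38 to 0.13), Aurka (-0.29 to 0.09) and Cdc20 (-0.55 to 0.15). Apart from fewer arrays where some were left out, the cause was not tested. Bub1, Kif11, Cdc6 and the dimmer probes of Ccne1 and Cdk1 lie near background, where differences are least certain.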
